A study of Arabidopsis thaliana with 9 samples.

Results

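Cpn60beta3 (AT5G56500) encodes a beta subunit of the plastid chaperonin of Arabidopsis thaliana. It is 1 of 13350 genes with a probe set of a single named gene on the array used here. It was chosen by its measured signals on these same arrays, as the named gene with the clearest fall in a HAP5 triple mutant against wild type, so its values are a description and carry no test. Over all tested probe sets its fall had rank 3 by p-value, after 2 probe sets without a single gene name.

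Plastid chaperonin is a double-ringed folding machine in the stroma. It takes up newly imported or newly made plastid proteins, among them the large subunit of Rubisco, and releases them folded with the help of co-chaperonins. In Arabidopsis it is assembled from alpha and beta subunits of several genes. Of the beta subunits, Cpn60beta2 and Cpn60beta3 are close relatives, whereas Cpn60beta4 is divergent and is known for folding NdhH, a subunit of the chloroplast NDH complex.

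RNA of 3 genotypes was hybridised to Affymetrix ATH1 arrays, with 9 arrays in all and 3 of each genotype. One was a HAP5 triple mutant, labelled Q3 and given as T-DNA knock-outs in Col-0. HAP5 proteins are the NF-YC part of a complex that binds CCAAT boxes. Another was a constans mutant, labelled co-SAIL with no background given. CONSTANS promotes flowering in long days. The wild type was given as Col-1, so that genotype and background cannot be told apart. All plants were 10 days old, were grown at 22 °C under days of 16 h light and 8 h dark, and gave their whole above-ground tissue 14 h after lights on. Whether replicate arrays stand for separate sets of plants is not in the labels, so errors and p-values reflect the scatter of these arrays, which may be technical. Each array is RNA of whole shoots, in which fewer cells that express a gene and less RNA per cell cannot be told apart.

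Values are MAS5 signals, a linear brightness per probe set that the authors scaled to the same trimmed mean on every array. Differences are on the log2 scale with a standard error (SE) from one limma fit of all 9 arrays, and a probe set was called when its Benjamini-Hochberg adjusted p over the 14173 tested probe sets was under 0.05. The arrays had median signals of 33.1 to 37.0, and any pair of arrays correlated at 0.952 to 0.985 over the probe sets. Of the shoot markers, 4 of 8 had a named probe set, with summed signals of 10949 to 13701 in the triple mutant, 11878 to 14560 on constans arrays and 11711 to 13680 in wild type. Of the root markers 3 of 8 were named, with sums of 189 to 229, 256 to 293 and 201 to 225 in the same order. Nearly all of the root sum came from PYK10, a beta-glucosidase gene, while EXPA7 and EXPA18, expansin genes of root hairs, were too dim to be tested. PYK10 was called lower in the triple mutant than in constans (-0.47 ± 0.11, limma adjusted p = 0.0382). Most of the shoot sum came from RCA and LHCB4.1. LHCB4.2 was called lower in the triple mutant than in constans (-0.43 ± 0.10, 0.0300). LHCB4.3 was higher than wild type in the triple mutant (0.28 ± 0.09) and in constans (0.30 ± 0.09), without a call. Between the mutants 3.38% of all tested probe sets were called.

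Cpn60beta3 was low in the triple mutant and level between the other genotypes. Its signal was 38.5, 33.1 and 45.2 on the triple mutant arrays, 90.8, 95.003 and 92.5 on the constans arrays and 94.4, 92.4 and 100.03 on the wild-type arrays. All 3 triple mutant arrays lay below all 6 others, and the lowest of those 6, constans 1, was still 2.01 times the highest triple mutant array. The constans and wild-type arrays overlapped.

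Mean signals were 38.9 ± 6.1 in the triple mutant, 92.8 ± 2.1 on constans arrays and 95.6 ± 4.0 in wild type (SD, n = 3 each). The triple mutant stood lower than wild type by a log2 difference of -1.31 ± 0.14 (SE), or 2.47-fold, and lower than the constans mutant by -1.26 ± 0.14, or 2.40-fold. These differences share the triple mutant arrays. The constans mutant differed from wild type by -0.04 ± 0.14, with a 95% interval of -0.34 to 0.26 on the log2 scale, and that comparison shares the wild-type arrays that entered the choice of the gene. In order of level the triple mutant came lowest, and constans and wild type did not differ beyond their spread.

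**Figure D1:**
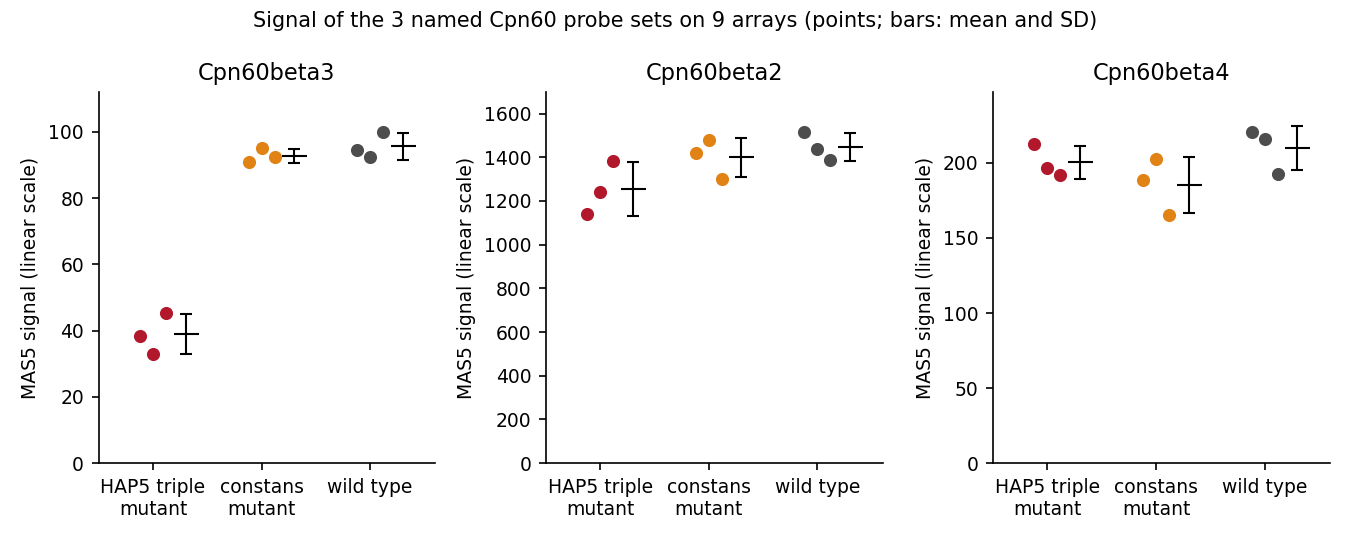
MAS5 signal on a linear scale of Cpn60beta3, Cpn60beta2 and Cpn60beta4 on the 9 arrays, by genotype. Points are arrays, bars are means with SD (n = 3), and each panel has its own axis. The Cpn60beta3 points of the triple mutant sit between 33.1 and 45.2, below the 6 others at 90.8 to 100.03.

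The replicate arrays were not equally tight. On the log2 scale the SD of Cpn60beta3 was 0.23 among triple mutant arrays, 0.03 among constans arrays and 0.06 among wild-type arrays. The highest triple mutant array was 1.37 times the lowest. The SE above comes from a spread pooled over all 3 genotypes and moderated by limma with that of the other probe sets. That spread is wider than that of the constans and wild-type arrays alone.

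Among named falls in the triple mutant, the next after Cpn60beta3 by p was AT2G24040, a small membrane protein gene of the family that responds to low temperature and salt. It had signals of 51.2, 38.1 and 43.9 on triple mutant arrays and 97.7, 87.4 and 86.8 in wild type, a log2 difference of -1.04 ± 0.15. Its triple mutant arrays likewise lay below all wild-type arrays.

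The other plastid chaperonin genes that could be named were Cpn60beta2 (AT3G13470) and Cpn60beta4 (AT1G26230), so 2 of the 5 other genes on the Cpn60 list. Neither was called in any comparison. Between the triple mutant and wild type 13 of 14173 probe sets, 0.0917%, were called (0.0423% lower and 0.0494% higher in the triple mutant). Of these 7 of 13 were higher, against 3 of 8 under quantile normalization. Between constans and wild type 198 or 1.4% were called (0.614% lower and 0.783% higher in constans), and between the 2 mutants 479 or 3.38% (1.45% lower and 1.93% higher in the triple mutant).

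Cpn60beta2 had signals of 1139, 1242 and 1382 in the triple mutant, 1421, 1477 and 1301 on constans arrays and 1516, 1437 and 1387 in wild type. All its triple mutant arrays were below all wild-type arrays, the nearest by a small margin (1382 against 1387), and overlapped the constans arrays. Of all tested probe sets 6.77% had every triple mutant array below every wild-type array. The difference from wild type was -0.21 ± 0.10 on the log2 scale (limma adjusted p = 0.789), with a 95% interval of -0.43 to 0.01.

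Cpn60beta4 had signals of 213, 196 and 192 in the triple mutant, 189, 202 and 166 on constans arrays and 221, 216 and 193 in wild type. The genotypes overlapped throughout. The triple mutant differed from wild type by -0.07 ± 0.11 (limma adjusted p = 0.959), with a 95% interval of -0.30 to 0.17, and the constans mutant by -0.18 ± 0.11 (0.598). The difference between the genes' changes was not tested, since the change in Cpn60beta3 chose the gene.

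Genes that work beside the chaperonin were read from lists of the chaperonins of each compartment, other plastid chaperones, the Clp protease, protein import, Rubisco and its assembly, chaperonin clients and the heat-shock response. Beside Cpn60beta3 these held 86 genes, of which 30 had a named probe set, and all 30 were tested. The import, mitochondrial HSP60 and heat-shock lists had no named member.

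None of the 30 was called by limma between the triple mutant and wild type, where 2 had an unadjusted p under 0.05, against 923 of all 14173. Their median log2 difference was -0.05, against 0.01 over all tested probe sets. The mean was lower in the triple mutant for 23 of the 30, against 48.6% of all tested. All triple mutant arrays lay below all wild-type arrays in 4 of the 30, Cpn60beta2, AT3G11830, AT5G55220 and ndhH, where 6.77% of all tested did. They lay above all wild-type arrays in 0 of the 30, where 7.29% of all tested did. Between constans and wild type none of the 30 was called in limma, and none had an unadjusted p under 0.05, against 1600 of all 14173. Their median difference there was -0.02. All constans arrays lay below all wild-type arrays in 3 of the 30 and above them in 0, where 6.97% and 7.38% of all tested probe sets did. Between the mutants all triple mutant arrays lay below all constans arrays in 3 of the 30 (AT4G25370, rbcL and ndhH) and above them in 1 (AT3G03960, a CCT subunit), where 11% and 11.5% of all tested did. Between the mutants 1 of the 30 was called, lower in the triple mutant, where 3.38% of all tested were called and 1.45% were called lower.

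**Figure D2:**
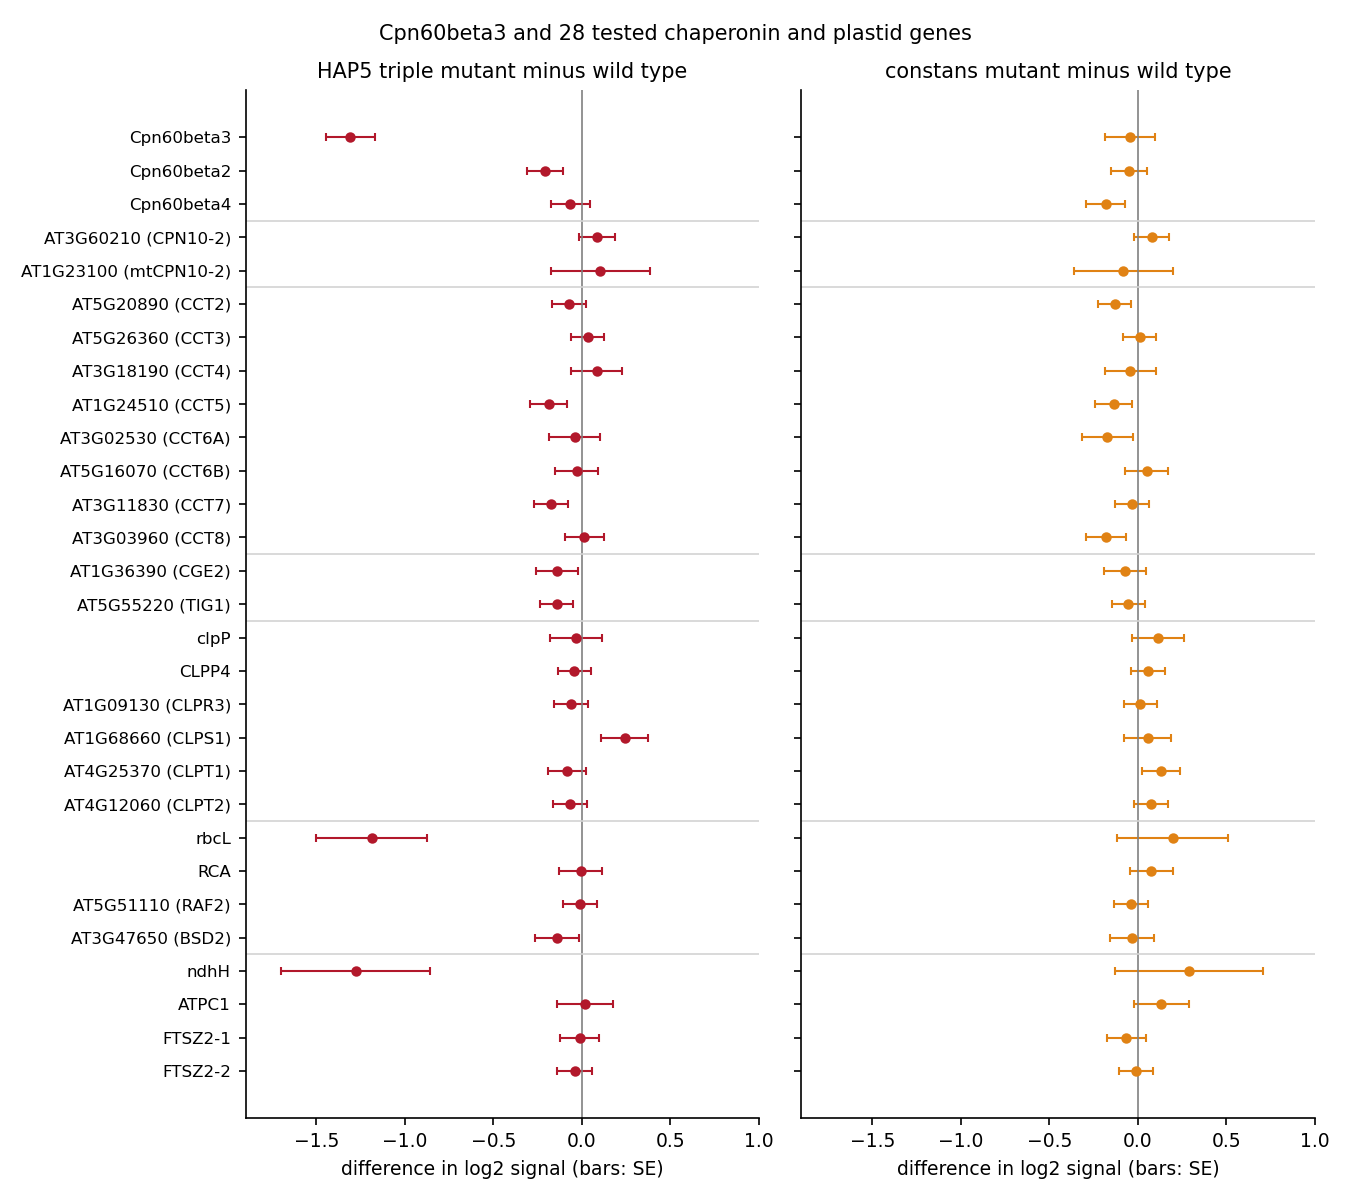
Difference in log2 signal from wild type for Cpn60beta3 and 28 of the 30 tested list genes, in the triple mutant (left) and the constans mutant (right), with SE bars and grey lines between lists. Cpn60beta3 stands at -1.31 on the left and -0.04 on the right, and only the plastid-encoded rbcL and ndhH lie near it on the left, with wider bars. Another plastid-encoded gene drawn, clpP of the Clp protease, stands at -0.03 ± 0.15 on the left.

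The co-chaperonins cap the chaperonin ring. AT3G60210, a plastid member of the family, had signals of 562, 564 and 657 in the triple mutant and 553, 573 and 553 in wild type, with overlapping arrays and a difference of 0.08 ± 0.10 (limma adjusted p = 0.942). AT1G23100, of the mitochondrial type, was dim and differed by 0.10 ± 0.28 (0.980).

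The cytosolic chaperonin CCT, a distant relative that folds actin and tubulin, had 8 of 9 subunits named. Their differences in the triple mutant ran from -0.19 to 0.08 with a median of -0.04. The lowest was AT1G24510, the CCT5 subunit (-0.19 ± 0.10, limma adjusted p = 0.831). AT3G11830, the CCT7 subunit, had 327, 334 and 351 in the triple mutant and 409, 375 and 359 in wild type, a difference of -0.17 ± 0.10 (0.832), and AT5G20890, the CCT2 subunit, differed by -0.07 ± 0.09 (0.948).

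Of the other stromal chaperones, AT5G55220, a trigger factor that meets nascent chains, had 405, 428 and 385 in the triple mutant and 434, 438 and 473 in wild type (-0.14 ± 0.09, limma adjusted p = 0.870). AT1G36390, which encodes the GrpE-type exchange factor CGE2, differed by -0.14 ± 0.12 (0.909). The 6 named genes of the Clp protease, which degrades stromal proteins, lay between -0.08 and 0.24. The highest was AT1G68660, the substrate adaptor CLPS1, at 0.24 ± 0.13 (0.829), with 861, 728 and 665 in the triple mutant and 669, 718 and 524 in wild type. The accessory subunits AT4G25370 (CLPT1) and AT4G12060 (CLPT2) differed by -0.08 ± 0.11 (0.945) and -0.07 ± 0.10 (0.950).

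Rubisco's large subunit is the classic client of the plastid chaperonin. Its plastid gene rbcL had signals of 514, 271 and 308 in the triple mutant, 559, 1327 and 1027 on constans arrays and 513, 941 and 1047 in wild type. The triple mutant overlapped wild type, through wild type 1, and lay below the constans mutant. It differed from wild type by -1.19 ± 0.31 (limma adjusted p = 0.370) and from the constans mutant by -1.38 ± 0.31 (0.0260), the 1 call among the 30 genes between the mutants. That call ended without triple mutant 2 or 3 or constans 2 or 3 (limma adjusted p 0.0910 to 0.129). It also ended with no filter on dim probe sets, no variance trend, or the array's 25S or 5S ribosomal RNA control as a covariate. Leaving out the arrays with a high 25S control left constans 1 as the only constans array, so no call is given there.

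The 6 tested genes of Rubisco and its assembly ran from -1.19 (rbcL) to -0.01 (RCA) against wild type, with a median of -0.19. The mean was lower in the triple mutant for all 6, against 48.6% of all tested probe sets. RCA, the Rubisco activase gene and the nearest of them to 0, differed from wild type by -0.01 ± 0.12 (limma adjusted p = 0.996). Among clients, the plastid gene ndhH had 50.7, 59.0 and 48.3 in the triple mutant, 73.1, 274 and 188 on constans arrays and 84.9, 95.5 and 254 in wild type. Its triple mutant arrays lay below all others, but the spread of the others was wide and the difference from wild type of -1.28 ± 0.42 was not called (0.557). Without wild type 3 it was -0.78. FTSZ2-1 and FTSZ2-2, genes of the plastid division ring, differed by -0.01 ± 0.11 and -0.04 ± 0.10 (0.994 and 0.978).

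The ribosomal RNA control probe sets varied widely between arrays. The 25S control gave 42.4, 16.9 and 15.9 on triple mutant arrays, 56.5, 1152 and 1079 on constans arrays and 22.6, 108 and 418 in wild type. The 5S control gave 71.7, 76.8 and 50.1 on triple mutant arrays, 134, 360 and 209 on constans arrays and 121, 165 and 212 in wild type, so that the triple mutant arrays were below all others, as in Cpn60beta3. Ratios of the 3′ to the 5′ control signal, a sign of RNA integrity, were 0.984 to 1.09 in the triple mutant, 1.06 to 1.13 on constans arrays and 1.02 to 1.11 in wild type for GAPDH. They were higher for ubiquitin, 1.53 to 2.12 over the 9 arrays, and for actin, 3.16 to 5.09, where wild type 3 had the lowest value and the other arrays lay at 4.11 or above.

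The constans arrays spanned 56.5 to 1152 in 25S signal with Cpn60beta3 at 90.8 to 95.003. Triple mutant 1 and wild type 1 had 25S signals of 42.4 and 22.6 and Cpn60beta3 signals of 38.5 and 94.4. Its difference between the triple mutant and wild type was -1.28 with the log2 25S signal as a covariate, -1.27 without the 3 arrays of 25S signal over 400, and -1.36 ± 0.23 with the log2 5S signal as a covariate, a setting added after the data were seen. The 5S signals of the triple mutant do not overlap those of the other genotypes, so genotype and 5S signal are partly confounded in that fit. The SE of the Cpn60beta3 difference was 0.23 there, against 0.14 in the main fit. For rbcL and ndhH the SE was 0.33 and 0.37 there, against 0.31 and 0.42. The values of rbcL under the 25S and 5S covariates were -0.61 ± 0.17 and -0.04 ± 0.33, and those of ndhH were -0.52 ± 0.24 and 0.43 ± 0.37. The part of the controls in the Cpn60beta3, rbcL and ndhH results was not tested.

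**Figure D3:**
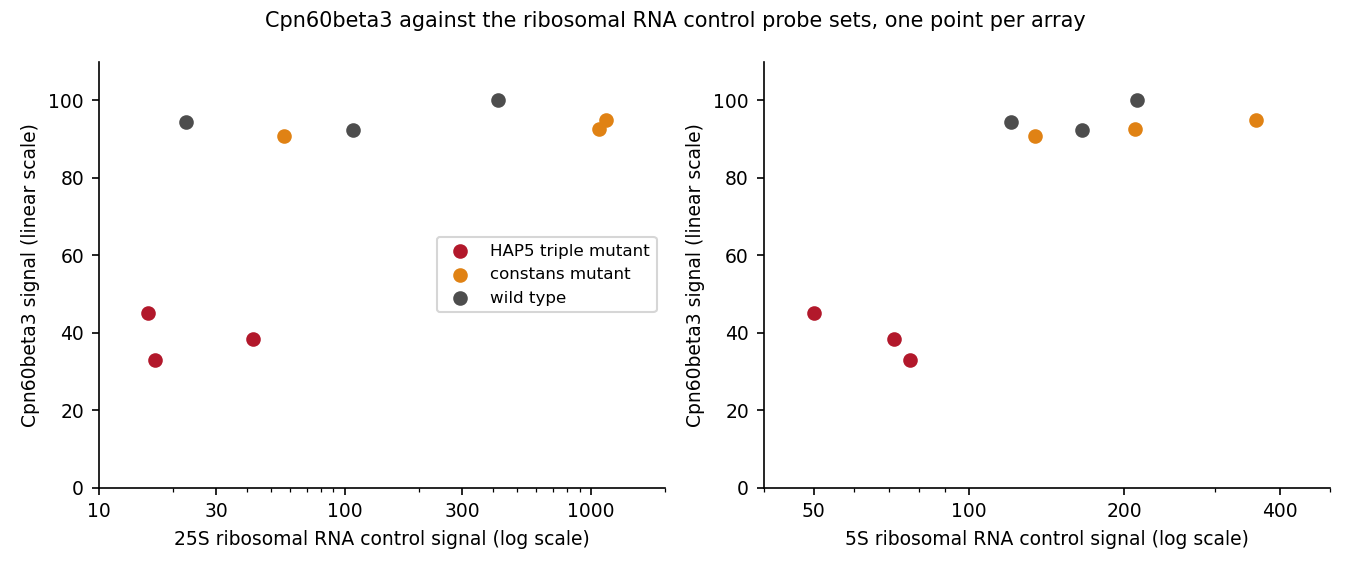
Cpn60beta3 signal (linear scale) against the 25S (left) and 5S (right) ribosomal RNA control signal (log scales), with 1 point per array coloured by genotype. Constans and wild-type arrays stay between 90.8 and 100.03 over 5S signals of 121 to 360 and 25S signals of 22.6 to 1152, and triple mutant arrays alone hold the lower 5S signals of 50.1 to 76.8.

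The genes whose log2 signals most resembled those of Cpn60beta3 over the 9 arrays were sought among 7690 other tested probe sets of a single named gene. These correlations are descriptions, the arrays share their genotype structure, and 15 genes had a Pearson r above 0.9. The highest were AT2G24040 (r = 0.957), AT2G32060, a gene of the small ribosomal subunit (0.947), SCN1 (0.933), AT1G77500 (0.931) and AT2G40010, of the ribosomal stalk P0 family (0.929). All 5 had every triple mutant array below every constans and wild-type array, which their choice by likeness to Cpn60beta3 favours. AT1G77500, at 14.4 to 15.2 in the triple mutant, was kept for tests only through the other genotypes.

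The size of the step differed among them. AT2G40010 had 73.9, 81.5 and 79.7 in the triple mutant, 137, 137 and 126 on constans arrays and 150, 146 and 115 in wild type. SCN1 had 197, 199 and 193 in the triple mutant, 228, 242 and 227 on constans arrays and 225, 225 and 228 in wild type. Against wild type the triple mutant thus stood at -0.80 on the log2 scale in AT2G40010 and at -0.21 in SCN1, a shallower step than in Cpn60beta3.

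The lowest correlations belonged to AT5G07580, an AP2/ERF transcription factor gene (r = -0.942), AT1G47400, a gene induced by iron deficiency (-0.932), CDI (-0.917), AT5G04440 (-0.912) and SBE2.2, a starch branching enzyme gene (-0.908). All 5 had every triple mutant array above every other array, which their choice by correlation likewise favours. AT1G47400 had 622, 834 and 596 in the triple mutant, 311, 285 and 203 on constans arrays and 385, 283 and 270 in wild type. It was thus highest on triple mutant 2, the array on which Cpn60beta3 was lowest.

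With each genotype's mean subtracted, the order was another. The highest were AT5G64816 (r = 0.985), AT2G45100, of the transcription factor IIB family (0.946), AT3G14360, a lipase-like gene (0.922), AT5G49840, of the ClpX type (0.917), and IYO, a regulator of RNA polymerase II (0.915). They rest on the differences among the 3 triple mutant arrays for the most part, because those are the arrays on which Cpn60beta3 varied. Cpn60beta2 had an r of 0.748 over the 9 arrays and 0.395 with genotype means subtracted, and Cpn60beta4 had -0.100 and -0.164.

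**Figure D4:**
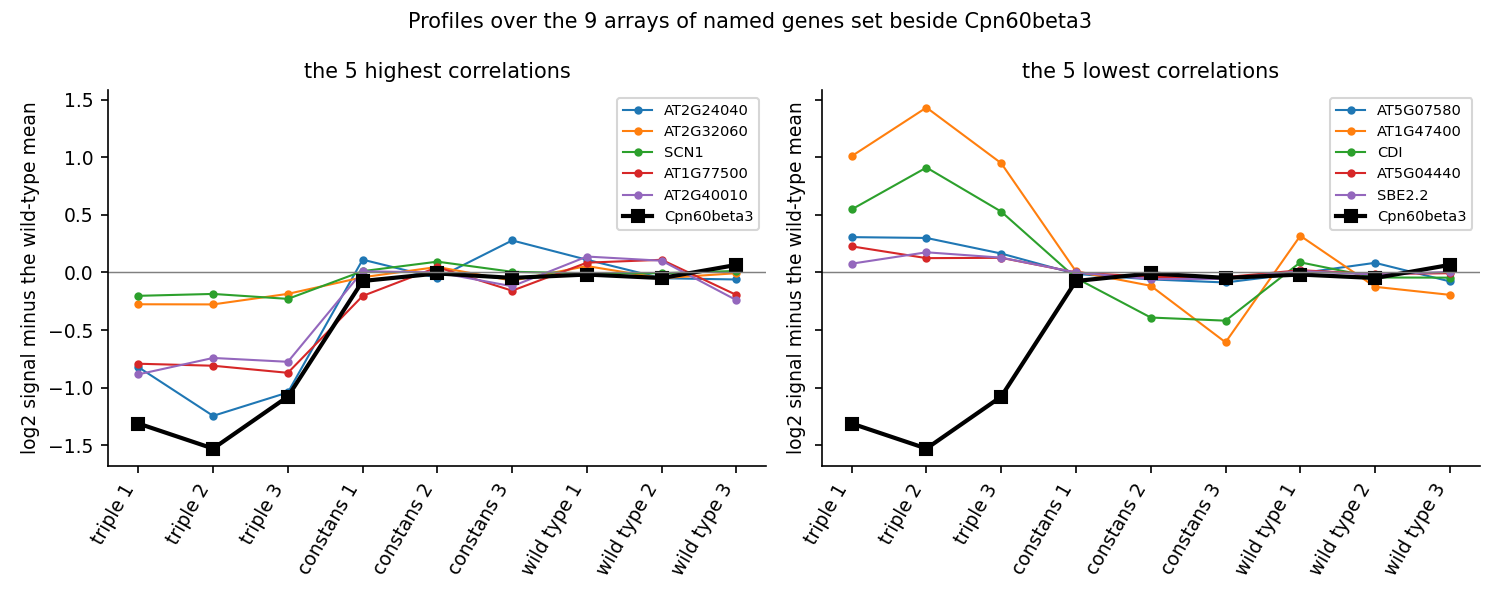
Log2 signal minus the wild-type mean on each of the 9 arrays for Cpn60beta3 (black) and for the 5 named genes with the highest (left) and lowest (right) Pearson correlation with it. The 5 genes on the left are low on all triple mutant arrays, with steps of -0.21 in SCN1 to -1.04 in AT2G24040, and those on the right are high there.

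Genes that lie near Cpn60beta3 on chromosome 5 were read in the gene order of the TAIR10.1 table, a set chosen after the values of the gene were seen. Among the 20 protein-coding genes on each side, 10 had a named probe set and 8 were tested. None was called between the triple mutant and wild type by limma, where 0.0917% of all tested probe sets were. None had an unadjusted p under 0.05, against 923 of all 14173. All triple mutant arrays lay below all wild-type arrays in 1 of the 8, AT5G56380, where 6.77% of all tested did. The differences of the 8 genes ran from -0.24 to 0.26 with a median of 0.06, 3 lower and 5 higher.

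The nearest tested genes were AT5G56520, 2 genes to one side, and AT5G56460, 4 genes to the other. AT5G56520 had 28.4, 23.4 and 23.1 in the triple mutant and 17.9, 27.9 and 17.7 in wild type (0.26 ± 0.25, limma adjusted p = 0.916). AT5G56460, a protein kinase gene, had 26.9, 20.0 and 19.2 in the triple mutant and 23.5, 26.5 and 27.5 in wild type (-0.24 ± 0.26, 0.930). Both were dim, and their genotypes overlapped.

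**Figure D5:**
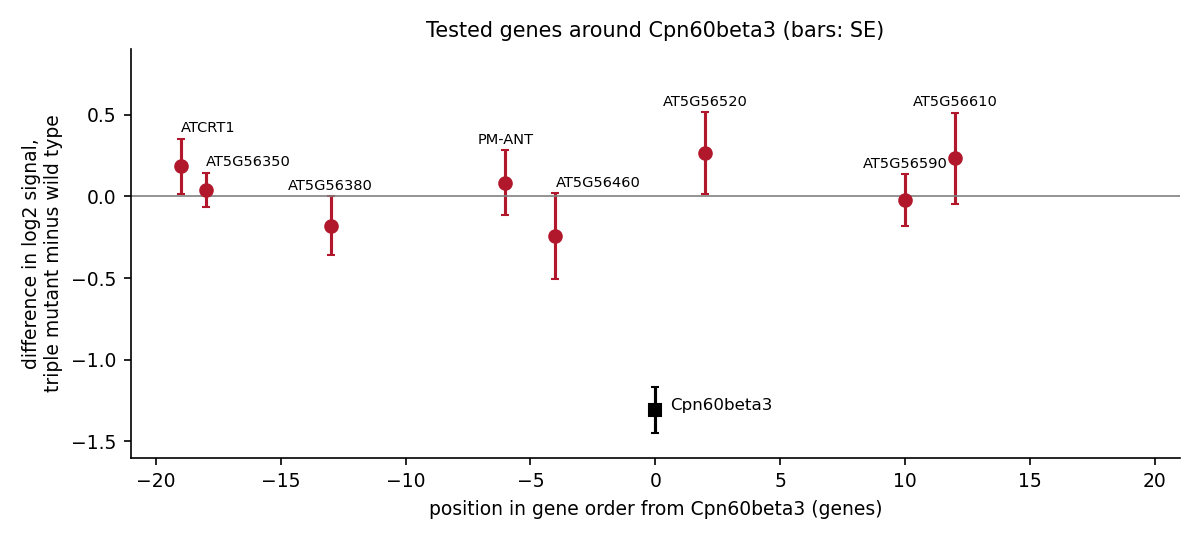
Difference in log2 signal between the triple mutant and wild type, with SE bars, for the 8 tested genes among 20 on each side of Cpn60beta3, by position in gene order. The neighbours lie between -0.24 and 0.26, and Cpn60beta3 (black square) at -1.31.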

How the data were processed

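The deposited values are intensity values, linear MAS5 signals per probe set, made by the authors with MAS5 and GCOS, per the submitters' processing notes, with no version given. Every array has the same trimmed mean, and detection calls were not used here. The 3 arrays per genotype limit the precision.

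The 64 control probe sets were left out of tests. Signals were raised to at least 1.029, the 10th percentile of all arrays, before log2. Of 22746 probe sets 14173 were kept for tests, those whose mean log2 signal in 1 genotype or more corresponded to a signal of 18.65 or higher, the 40th percentile of such means. One model of all 9 arrays was fitted by limma 3.58.1 under R 4.3.3 (lmFit, then eBayes with a variance trend). It held no covariate and left 6 residual degrees of freedom. The fit was tested on simulated data. Names came from the platform annotation (13513 probe sets with 1 gene, 503 with several, 8730 without a name), joined to TAIR10.1 loci.

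Cpn60beta3 and the lists were chosen with earlier results of these data known. Named genes were the Cpn60 probe sets, from each list called members or else up to 3 of smallest p in the triple mutant, the 5 genes at each end of the correlation and the next named fall. RCA, AT3G03960, clpP, the neighbours and the shoot and root markers were named after their values were seen. Alternatives changed normalization, floor, filter, variance model, samples and covariates. Some list members are not reported here, and promoter sequences were not analysed here.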

Additional observations from a re-analysis of the deposited data

How the results depend on the processing

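The differences in Cpn60beta3 kept their direction and moved by less than the spread between replicate arrays under every alternative tried, from -1.42 to -1.20 on the log2 scale between the triple mutant and wild type, -1.38 to -1.15 between the triple mutant and the constans mutant and -0.08 to -0.01 between constans and wild type. The extremes came without triple mutant 3 and without triple mutant 2 in the first 2. Arrays of the same replicate number resembled each other weakly at most. Their deviations from genotype means correlated at -0.04 to 0.23, above 0.1 in 3 of 9 pairs. Between arrays of different numbers the range was -0.32 to 0.20. In both other genotypes at once, 3 of 9 arrays correlated best with the array of their own number. Those were triple mutant 3, constans 3 and wild type 3. Whether a weak replicate effect was shared between genotypes was not tested. With the replicate number as a block the Cpn60beta3 difference between the triple mutant and wild type was again -1.31, and 20 probe sets were called there against 13. The block gave 234 calls against 198 between constans and wild type, and 661 against 479 between the mutants.

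The count of calls between the triple mutant and wild type (13) was 8 under quantile normalization, under median centring, with the 25S covariate and for changes of at least 2-fold, 4 with no trend, 99 with array weights, 28 with only those genotypes fitted, 9 with no filter and 27 without the 3 arrays of 25S signal over 400. It was 5 to 26 when single arrays were left out (5 without triple mutant 2 or wild type 1, 7 without triple mutant 3 or wild type 3, 26 without constans 1). It was 0 with the 5S covariate, which is partly confounded with genotype, and there 753 had an unadjusted p under 0.05 in limma. Between constans and wild type (198) it was 63 at 2-fold, 56 with no filter, 102 with no trend, 37 without the high-25S arrays and 94 to 226 without single arrays (98 without constans 3, 94 without wild type 2). Between the mutants (479) it was 169 at 2-fold, 185 with no filter, 306 with no trend, 1192 with array weights, 132 and 35 with the 25S and 5S covariates, 135 without the high-25S arrays and 207 to 927 without single arrays (270, 219 and 281 without triple mutant 1, 2 and 3, and 927, 289 and 207 without constans 1, 2 and 3). Between the triple mutant and wild type 73 of the 99 calls with array weights were higher in the triple mutant, and 1 of the 9 with no filter, of which 3 were among the 13. The causes were not tested.

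Of the 30 list genes none was called by limma in either mutant against wild type under any alternative run. Between the mutants the count was 0 with no filter, no trend or either covariate, 2 with array weights, with only those genotypes fitted and with the replicate block, and 0 to 2 without single arrays. The rbcL difference between the mutants was not called with no filter (limma adjusted p = 0.201), no trend (0.0985) or the 25S covariate (0.883), and turned to 0.13 with the 5S covariate (0.996). Without the high-25S arrays it rested on constans 1 as the only constans array, so no p is given. Uncalled differences near 0 changed sign between the triple mutant and wild type. FTSZ2-1 stood at 0.00031 with array weights, 0.043 with the 25S covariate, 0.034 with the 5S covariate, 0.066 without the high-25S arrays or wild type 3, 0.042 without triple mutant 1 and 0.0046 without triple mutant 2, and ran from -0.083 to 0.066 over single arrays left out. AT1G23100 stood at -0.025 without triple mutant 3 and -0.23 without wild type 1 (up to 0.30 without wild type 3). AT4G25370 stood at 0.0081 without wild type 3 or the high-25S arrays (down to -0.15 without triple mutant 3). With the 5S covariate AT4G12060 stood at 0.067 and FTSZ2-2 at 0.057. The ndhH difference, at -1.28 not near 0, also changed sign with that covariate, to 0.43. Of the 5 genes most like Cpn60beta3, 2 stayed among the highest 5 under quantile normalization and none by Spearman rank, and of the 5 least like it 3 and none.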
